A study of Mus musculus with 8 samples.

Results

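The collagen chain genes of the mouse heart were described across 8 RNA libraries of the left ventricle. Members were all gene symbols made of Col, a number, the letter a and a number, and 44 of the 24062 genes in both count tables met this rule. Of these 44, 40 passed the filter on low counts, against 15508 of all genes, and Col6a4, Col9a1, Col9a2 and Col26a1 did not. Myocardial infarction (MI) had been induced by tying off the left anterior descending coronary artery, and the ischemic part of the free wall was taken 1 day or 3 days later. The sham groups of 1 day and 3 days had surgery without ligation. Every group held 2 male C57BL/6 mice of 8 to 12 weeks, and all groups were sequenced as total RNA of whole tissue after depletion of ribosomal RNA. Levels are given as counts-per-million (CPM) of a library's normalised total. Within each group the libraries are named A and B by column order, since the count columns carry no replicate number.

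A collagen is built of chains that wind into a triple helix in the endoplasmic reticulum. Fibrillar collagens then assemble into the cross-linked fibrils that bear tension, FACIT collagens (fibril-associated, with interrupted helices) coat those fibrils, and type IV collagen forms the sheet of basement membranes around vessels and muscle cells. Type VI forms beaded microfilaments, short-chain collagens form networks, multiplexins sit at the outer face of basement membranes, and transmembrane collagens stay on the cell surface. In the heart, fibroblasts are known as the main source of fibrillar collagen, which replaces lost muscle after infarction, while endothelial cells and cardiomyocytes are known to lay down basement membrane.

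The gene counts of a library came to 12662237 and 7382490 after MI and 20676514 and 20120257 after sham surgery at 1 day. At 3 days they came to 21055785 and 25041386 after MI and 18831791 and 19845961 after sham surgery. In these depths 3 counts, the most that a count of 0 allows, equalled 0.102 to 0.369 CPM, for counting error alone. MI library B of 1 day stood apart. It held reads for 92.2% of 1488 receptor genes of smell, taste and pheromones, a set picked by gene symbol once the counts had been looked at. In the same measure MI library A of 1 day had 23.5%, sham libraries A and B of 1 day had 5.24% and 50.7%, and the 4 libraries of 3 days had 4.30 to 8.13%. The 10 cardiomyocyte markers took 10.8% and 11.6% of CPM after MI and 20.4% and 17.9% after sham surgery at 1 day. At 3 days the same markers took 0.878% and 0.875% after MI and 12.8% and 19.1% after sham surgery, and all 10 were called lower. In bulk tissue fewer cells of a type and less RNA per cell cannot be told apart, and CPM are shares of a total that moves with them.

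At 1 day the collagen genes moved in both directions, and at 3 days most that moved were higher after MI. Col1a1, Col1a2, Col3a1, Col5a1, Col5a3, Col6a1, Col6a2, Col6a3, Col6a6, Col4a5, Col14a1 and Col15a1 were lower after MI at 1 day. At 3 days Col1a1, Col1a2, Col3a1, Col5a1, Col5a2, Col8a1, Col12a1 and Col18a1 stood at 4.90 to 22.8 times their sham level. By the edgeR quasi-likelihood test, adjusted by Benjamini-Hochberg over all genes with a threshold of 0.05, 10 of 40 members were higher and 12 lower at 1 day, where 19.3% of all genes were called higher and 19.7% lower (39.0% in either direction). At 3 days 19 were higher and 5 lower, where the shares of all genes were 31.7% and 23.7% (55.4% in either direction). With 2 libraries a group, MI and sham libraries did not overlap for 67.3% of all genes at 1 day and 81.0% at 3 days, so that such a gap in a member is given as a description. The median log2 fold change of the 40 members was 0.66 at 1 day and 1.05 at 3 days, against 0.12 and 0.16 over all genes tested. The median at 1 day was 1.15 without MI library A of that day (44 members tested), 0.33 without MI library B (40), 0.14 without both B libraries of 1 day (39) and 0.08 in the transcript tables (36). At 3 days it was 0.67 without MI library A of 1 day and 0.31 without MI library B of 3 days (44 members tested in both). Over all genes the median at 1 day was 0.25 without MI library A of that day and −0.01 without MI library B. The number of all genes called at 1 day moved too, highest without MI library A and lowest without sham library A. The counts of members that follow are therefore descriptions and no result about collagen genes alone. Without MI library B of 1 day, 7 members were higher and 14 lower at 1 day, of which 4 and 12 were among those above. Without MI library A of that day 20 were higher and 11 lower. Without sham A 2 were higher and 9 lower, and without sham B 2 were higher and 10 lower. Without MI library A or MI library B of 3 days, which share the estimate of spread, 6 were higher and 11 lower. At 3 days 8 members were lower without MI library A or MI library B of 1 day.

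The effect of MI itself changed between the days in 20 members. The test of the difference, the MI effect at 3 days minus that at 1 day, was positive for 15 and negative for 5, where 13.2% and 11.3% of all genes were called. Of the 12 members lower at 1 day, 8 were higher at 3 days. These were Col1a1, Col1a2, Col3a1, Col5a1, Col5a3, Col6a3, Col14a1 and Col15a1, and all 8 passed the test of the difference. Opposite calls of the same fit add up in that difference, so that passing it is no separate evidence. How many of all genes went from lower at 1 day to higher at 3 days was not counted. Both effects were positive calls for Col8a1, Col11a1, Col12a1 and Col24a1, and both were negative calls for Col4a5 and Col6a6. Neither day gave a call for 9 of the 40. Positive differences also stood for Col5a2, Col6a1, Col6a2, Col8a1, Col11a1, Col16a1 and Col18a1, and negative ones for Col4a3, Col4a4, Col6a5, Col6a6 and Col13a1. Some of these did not pass in every fit that left out 1 library. Such a fit leaves 1 library in a group and changes the genes past the filter and the number of all genes called. Reliance on that library and lost power cannot be told apart there. Over 15 alternatives the log2 difference stayed at 1.01 to 1.76 for Col6a1 and 1.08 to 1.88 for Col6a2. Col6a1 and Col6a2 lost the difference on leaving out sham A or sham B of 1 day or MI library A, MI library B or sham B of 3 days, with adjusted p up to 0.211 and 0.135. Col11a1 lost it on leaving out either sham library of 1 day or any library of 3 days (up to 0.268), and Col6a6 on leaving out any library but MI library A of 1 day and the sham libraries of 3 days (up to 0.113). Col4a3 lost it on leaving out sham A of 1 day (0.0586), and Col5a3 on leaving out MI library B of 3 days (0.0524). Col4a4 lost it on leaving out sham B of 1 day (0.0612), MI library B of 3 days (0.0579) or sham B of 3 days (0.0514). Col6a5 lost it on leaving out any library but MI library A of 1 day (up to 0.180), and Col13a1 on leaving out sham B of 1 day or MI library A or sham A of 3 days (up to 0.0938). The negative differences numbered 12 without MI library A of 1 day, 3 without MI library B, 2 without sham A and 1 without sham B. They numbered 2 without MI library A or MI library B of 3 days and 3 without sham B of 3 days. When the 2 B libraries of 1 day were left out, 14 differences were positive and 1 was negative.

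**Figure D1:**
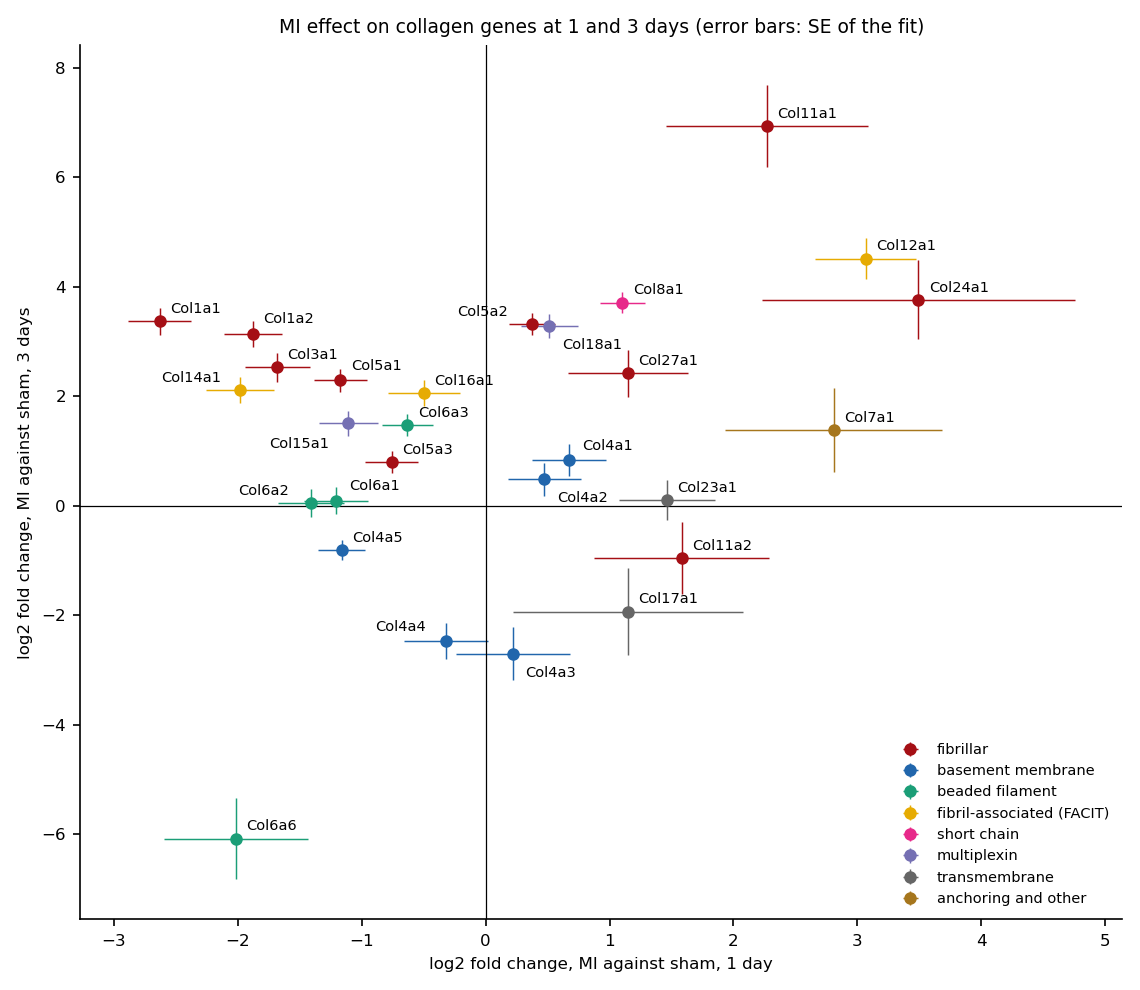
Log2 fold change of MI against sham at 1 day (horizontal) and 3 days (vertical) for the 28 collagen genes that averaged 5 CPM or more in some group, coloured by class, with the SE of the fit as error bars. The fibrillar genes Col1a1, Col1a2, Col3a1 and Col5a1 lie at upper left (lower at 1 day, higher at 3 days), Col11a1 and Col12a1 at upper right, and Col6a6 at lower left.

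Of the 11 fibrillar chains 3 were called higher and 5 lower at 1 day (27.3% and 45.5%, against 19.3% and 19.7% of all genes). At 3 days 9 were higher and 0 lower (81.8% and 0%, against 31.7% and 23.7% of all genes). The type I chains, which form the main fibril of scar, had the lowest fold changes of the class at 1 day. Col1a1 (chromosome 11, 94936224 to 94953042 in GRCm38.p6, the assembly of mm10), its principal chain, had 22.7 and 25.1 CPM after MI and 156 and 139 CPM after sham surgery at 1 day. Col1a1 at 3 days had 1200.5 and 1391 CPM after MI and 156 and 95.2 CPM after sham surgery. Both MI libraries lay below both sham libraries at 1 day and above them at 3 days. That was 6.19-fold lower at 1 day (log2 fold change −2.63, SE 0.26, adjusted p = 0.000182) and 10.3-fold higher at 3 days (log2 fold change 3.37, SE 0.25, adjusted p = 5.03e-06). Col1a2 (chromosome 6, 4505618 to 4541543), the other chain of the type I trimer, had 70.7 and 67.2 CPM after MI and 259 and 247 CPM after sham surgery at 1 day. Col1a2 at 3 days had 1786 and 2112 CPM after MI and 272 and 171 CPM after sham surgery. The groups were again apart on both days and in the same directions, 3.67-fold lower at 1 day (log2 fold change −1.88, SE 0.23, adjusted p = 0.000464) and 8.81-fold higher at 3 days (log2 fold change 3.14, SE 0.24, adjusted p = 5.6e-06). Col3a1 (chromosome 1, 45311538 to 45349706), the type III chain of elastic tissues, had the highest level per kilobase of all collagens in every library but the MI libraries of 1 day. It stood at 209.7 and 279 CPM after MI and 705 and 862 CPM after sham surgery at 1 day. Col3a1 at 3 days had 5090.4 and 5571 CPM after MI and 1153 and 695 CPM after sham surgery. No MI library overlapped the sham libraries of its day, and Col3a1 was 3.21-fold lower at 1 day (log2 fold change −1.68, SE 0.26, adjusted p = 0.00126) and 5.77-fold higher at 3 days (log2 fold change 2.53, SE 0.27, adjusted p = 3.87e-05).

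Type V collagen starts fibrils and limits their width, and 2 of its 3 chains fell at 1 day and all 3 rose at 3 days. Of all genes 19.7% were called lower at 1 day and 31.7% higher at 3 days. Col5a1 (chromosome 2, 27886381 to 28039510) had 35.2 and 49.0 CPM after MI and 96.4 and 92.3 CPM after sham surgery at 1 day. Col5a1 at 3 days had 416 and 447 CPM after MI and 100.2 and 75.8 CPM after sham surgery. It lay below sham in both MI libraries of 1 day (log2 fold change −1.17, SE 0.21, adjusted p = 0.00276) and above in both of 3 days (log2 fold change 2.29, SE 0.21, adjusted p = 1.65e-05). Col5a2 (chromosome 1, 45374331 to 45503282), whose chain joins that of Col5a1 in 1 trimer, had 117 and 137 CPM after MI and 102 and 94.6 CPM after sham surgery at 1 day. Col5a2 at 3 days had 1041 and 1146 CPM after MI and 124 and 95.6 CPM after sham surgery. Its MI libraries were slightly above the sham libraries at 1 day, a difference that did not pass the test (log2 fold change 0.37, SE 0.18, adjusted p = 0.137), and 9.96-fold higher at 3 days (log2 fold change 3.32, SE 0.20, adjusted p = 1.95e-06). Col5a3, a chain of less widespread use, had 22.0 and 30.1 CPM after MI and 48.8 and 38.6 CPM after sham surgery at 1 day. Col5a3 at 3 days had 79.1 and 83.8 CPM after MI and 44.9 and 48.9 CPM after sham surgery. The groups were apart on both days, with small calls in opposite directions (log2 fold change −0.76, SE 0.21, adjusted p = 0.0206 at 1 day, and log2 fold change 0.80, SE 0.20, adjusted p = 0.00703 at 3 days). Library size alone and a fit per day lost the call at 1 day. The call at 1 day did not hold once sham library A was left out (adjusted p = 0.136). The call at 3 days did not hold on leaving out MI library A (adjusted p = 0.0973) or MI library B (adjusted p = 0.160). The adjusted p of Col5a3 had a range of 0.00345 to 0.136 over 16 alternatives at 1 day and a range of 0.00157 to 0.160 over 16 alternatives at 3 days. Col3a1 and Col5a2 are neighbours, with 24624 bases between them on chromosome 1.

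The minor fibrillar chains, known mainly from cartilage and bone, were rare in sham hearts, and 3 of them rose at 3 days. Higher calls on that day were 31.7% of all genes. Col11a1 (chromosome 3, 114030479 to 114220756), which forms mixed fibrils with types II and V, had 1.13 and 7.98 CPM after MI and 0.521 and 1.15 CPM after sham surgery at 1 day. Col11a1 at 3 days had 25.3 and 28.3 CPM after MI and 0.107 and 0.318 CPM after sham surgery. The MI libraries of 3 days stood far above all others, while the sham libraries of 3 days rested on 2 and 6 reads. The fitted difference at 3 days was 122-fold (log2 fold change 6.93, SE 0.75, adjusted p = 3.23e-05), the highest of all members called on that day. At 1 day its groups overlapped, and MI library B held 65 reads where MI library A held 14. The call at 1 day (log2 fold change 2.27, SE 0.82, adjusted p = 0.0497) ended on leaving out MI library B (adjusted p = 0.643, range of 0.000992 to 0.643 over 16 alternatives). It also ended on leaving out either sham library of that day (adjusted p = 0.244 for A and 0.113 for B) or any library of 3 days. Col24a1, a fibrillar chain of bone and cornea, had 0.324 and 5.16 CPM after MI and 0.0579 and 0.344 CPM after sham surgery at 1 day. Col24a1 at 3 days had 9.17 and 6.94 CPM after MI and 0.481 and 0.690 CPM after sham surgery. It was higher at 3 days (log2 fold change 3.76, SE 0.72, adjusted p = 0.00128), and was also called at 1 day (log2 fold change 3.49, SE 1.26, adjusted p = 0.0497). This call ended on leaving out MI library B (adjusted p = 0.732, range of 0.00143 to 0.732 over 15 alternatives), sham A (0.261) or sham B (0.145) of 1 day, or any library of 3 days. Col27a1, a fibrillar chain of cartilage, had 8.26 and 16.8 CPM after MI and 5.09 and 5.86 CPM after sham surgery at 1 day. Col27a1 at 3 days had 30.5 and 31.8 CPM after MI and 2.94 and 8.70 CPM after sham surgery. The MI libraries of 3 days were above all sham libraries (log2 fold change 2.42, SE 0.42, adjusted p = 0.000928), and those of 1 day did not pass the test (adjusted p = 0.0856), which they passed, as higher, without MI library A of 1 day (adjusted p = 0.0369, range of 0.0369 to 0.475 over 16 alternatives). The cartilage chain Col11a2 passed no test, with 1.94 and 8.11 CPM after MI and 1.45 and 1.61 CPM after sham surgery at 1 day. Col11a2 at 3 days had 1.35 and 1.26 CPM after MI and 1.44 and 3.61 CPM after sham surgery. MI library B of 1 day was the highest for Col11a2. Without MI library A of 1 day, Col11a2 was called higher at 1 day (adjusted p = 0.00832, range of 0.00832 to 0.841 over 16 alternatives), with a negative difference between the days (adjusted p = 0.00879).

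The upstream DNA of fibrillar and network collagens that rose together at 3 days, and of Col6a6, which fell on both days, is shown for the 150 bases before the annotated start, for 6 genes picked after their values were seen. Sequences are from RefSeq (GRCm38.p6), which gave such windows for 35 of the 44 members, written 5′ to 3′ on the strand of the gene. Capitals mark 3 motifs, each searched on both strands, so that a capital run may be the reverse complement. The first, CCAAT, is a box that stands upstream of many genes. The next is the GC box, known to be bound by Sp factors, with the letters GGGCGG. The last, to which the TATA-binding protein is known to bind, was searched as TATAAA. The first and last can share letters with their own reverse complement, and none did in the windows shown.
Col1a2, chr6:4505468-4505617, plus strand: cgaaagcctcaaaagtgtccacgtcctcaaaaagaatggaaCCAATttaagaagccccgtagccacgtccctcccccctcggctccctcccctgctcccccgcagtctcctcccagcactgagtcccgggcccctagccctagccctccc
Col3a1, chr1:45311388-45311537, plus strand: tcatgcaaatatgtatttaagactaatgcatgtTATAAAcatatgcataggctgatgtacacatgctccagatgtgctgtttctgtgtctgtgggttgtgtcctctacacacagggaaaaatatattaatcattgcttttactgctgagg
Col5a1, chr2:27886275-27886424, plus strand: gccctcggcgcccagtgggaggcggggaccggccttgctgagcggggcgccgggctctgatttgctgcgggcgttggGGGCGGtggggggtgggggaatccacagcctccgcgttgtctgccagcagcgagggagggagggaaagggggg
Col11a1, chr3:114030390-114030539, plus strand: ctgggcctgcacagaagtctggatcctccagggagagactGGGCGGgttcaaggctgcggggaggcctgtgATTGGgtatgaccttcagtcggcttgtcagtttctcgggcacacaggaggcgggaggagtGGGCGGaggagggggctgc
Col8a1, chr16:57754738-57754887, minus strand: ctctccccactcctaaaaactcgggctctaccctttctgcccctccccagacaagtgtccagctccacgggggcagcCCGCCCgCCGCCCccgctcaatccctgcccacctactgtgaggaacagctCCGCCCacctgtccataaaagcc
Col6a6, chr9:105828086-105828235, minus strand: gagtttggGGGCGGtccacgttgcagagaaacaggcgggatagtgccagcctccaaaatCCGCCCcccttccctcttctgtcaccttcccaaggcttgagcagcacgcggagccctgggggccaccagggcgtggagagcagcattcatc
In windows of 250 bases before the start, CCAAT was found in 34.2% of 38 collagen windows and 33.8% of all 32851 RefSeq windows. TATAAA was found in 13.2% and 12.4%, and GGGCGG in 57.9% and 32.7%. The Col1a2 window has CCAAT 109 bases before the start, Col11a1 has it on the other strand 79 bases before, and Col3a1 has TATAAA 117 bases before. In the 150 bases shown, GGGCGG occurs on 1 strand or the other for Col5a1, Col11a1, Col8a1 and Col6a6, of which the last fell and the others rose at 3 days. Col1a2 has it farther out, 188 and 205 bases before the start. A match is a description of the letters, and nothing on binding of a factor was measured.

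Of 7 FACIT chains tested, 2 were higher and 1 lower at 1 day (28.6% and 14.3%, against 19.3% and 19.7% of all genes). At 3 days 3 were higher and 0 lower (42.9% and 0%, against 31.7% and 23.7% of all genes). Col12a1 (chromosome 9, 79598987 to 79721141), a fibril coat of tendon and muscle, had 25.6 and 56.9 CPM after MI and 4.86 and 4.82 CPM after sham surgery at 1 day. Col12a1 at 3 days had 251 and 275 CPM after MI and 8.44 and 14.6 CPM after sham surgery. All MI libraries of both days lay above their sham libraries, 8.37-fold at 1 day (log2 fold change 3.07, SE 0.41, adjusted p = 0.000639) and 22.8-fold at 3 days (log2 fold change 4.51, SE 0.38, adjusted p = 1.01e-05). Col14a1 (chromosome 15, 55307644 to 55520803), which binds the same fibrils, had 8.91 and 15.5 CPM after MI and 41.7 and 52.0 CPM after sham surgery at 1 day. Col14a1 at 3 days had 181 and 200.3 CPM after MI and 49.5 and 38.8 CPM after sham surgery. It was the reverse of Col12a1 at 1 day, 3.94-fold lower (log2 fold change −1.98, SE 0.28, adjusted p = 0.000753), and 4.32-fold higher at 3 days (log2 fold change 2.11, SE 0.24, adjusted p = 6.26e-05). Col16a1, a FACIT that also meets fibrillin filaments, had 6.32 and 10.3 CPM after MI and 10.3 and 12.5 CPM after sham surgery at 1 day. Col16a1 at 3 days had 59.9 and 57.3 CPM after MI and 15.9 and 12.3 CPM after sham surgery. Its groups overlapped at 1 day and were apart at 3 days, with 4.17-fold more RNA after MI (log2 fold change 2.06, SE 0.24, adjusted p = 6.89e-05). At 1 day Col16a1 passed the test, as lower, without MI library B (adjusted p = 0.0390, range of 0.0390 to 0.606 over 16 alternatives).

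Col8a1 (chromosome 16, 57624256 to 57754737), a short-chain collagen of vessel walls, rose on both days. Its libraries had 67.8 and 79.0 CPM after MI and 32.2 and 36.0 CPM after sham surgery at 1 day. Col8a1 at 3 days had 672 and 698 CPM after MI and 57.4 and 47.2 CPM after sham surgery. The groups did not overlap on either day, 2.15-fold higher at 1 day (log2 fold change 1.10, SE 0.18, adjusted p = 0.00165) and 13.1-fold higher at 3 days (log2 fold change 3.71, SE 0.19, adjusted p = 1.39e-06). Its partner chain Col8a2 was rare, at 0.405 and 2.70 CPM after MI and 0.637 and 1.09 CPM after sham surgery at 1 day. Col8a2 at 3 days had 3.89 and 3.94 CPM after MI and 0.908 and 0.584 CPM after sham surgery. Both MI libraries of 3 days were above all other libraries (log2 fold change 2.38, SE 0.57, adjusted p = 0.00573), and at 1 day the groups overlapped (adjusted p = 0.559). Col10a1, the short-chain collagen of growing cartilage, passed no test and ranged from 0.908 to 3.69 CPM over the 8 libraries.

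**Figure D2:**
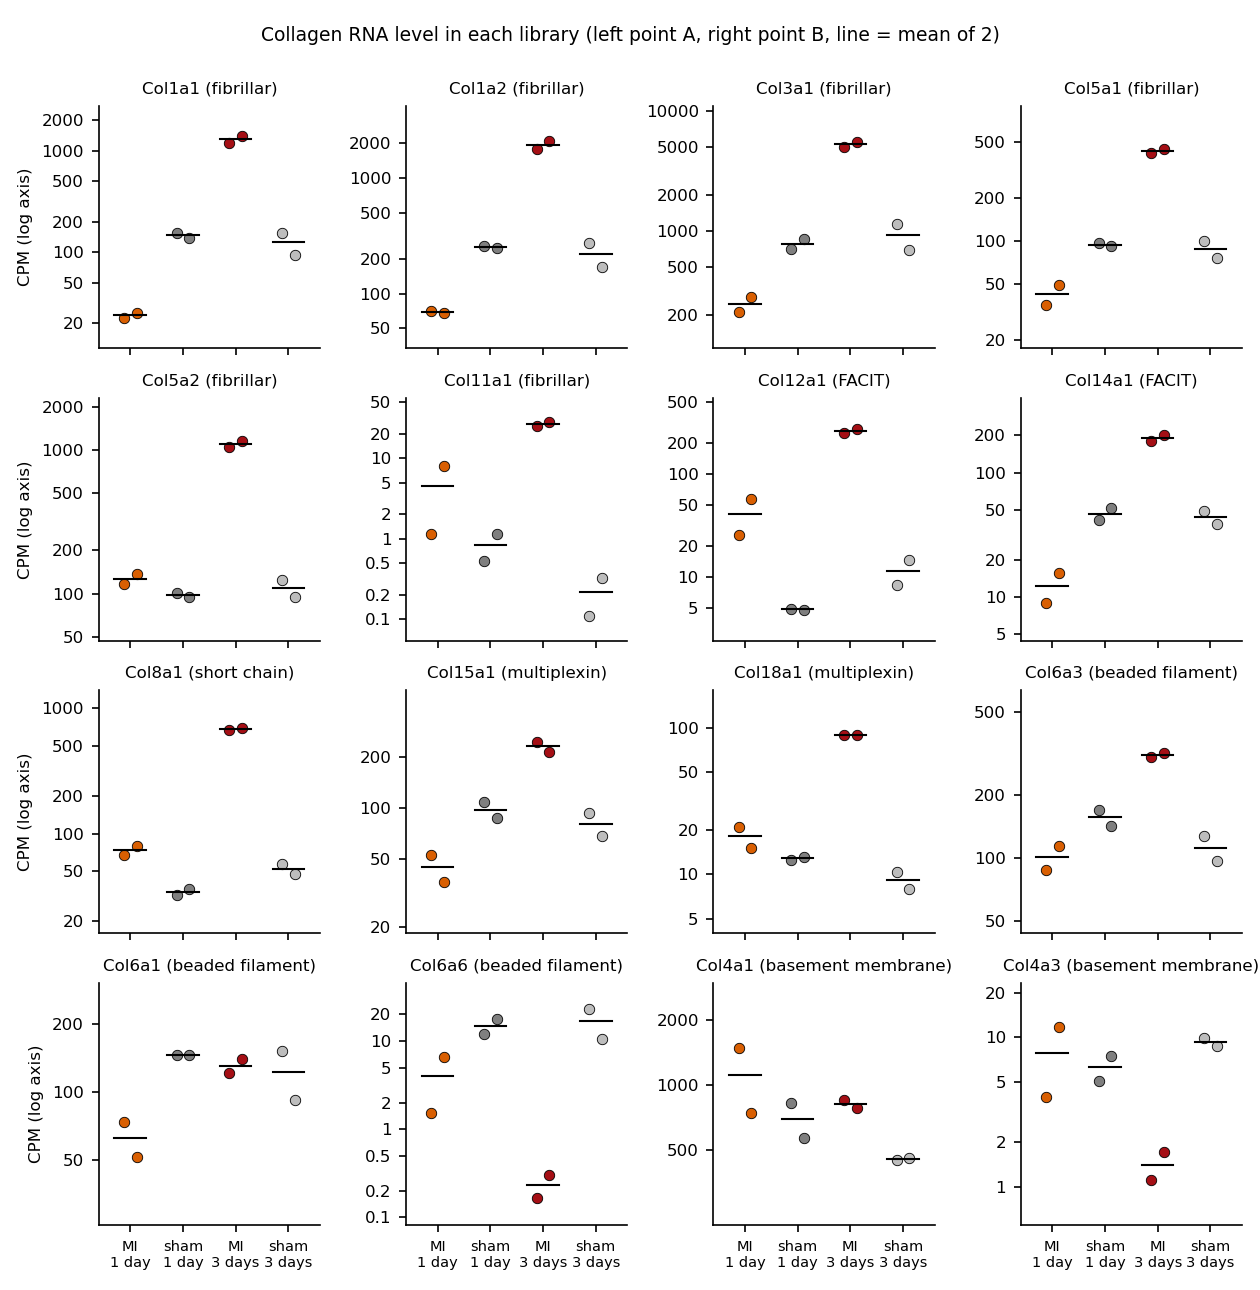
Level of 16 collagen genes in each library, in CPM on log axes that differ between panels, for MI and sham at 1 day and at 3 days. Points are single libraries and lines are means of 2. Col1a1, Col1a2, Col3a1, Col5a1 and Col14a1 have their lowest points in the MI libraries of 1 day and their highest in the MI libraries of 3 days, and Col6a6 has its lowest in the MI libraries of 3 days.

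The basement membrane chains Col4a1 and Col4a2, which form the type IV network of nearly all vessels, were the 2 most abundant collagen RNAs per kilobase in both MI libraries of 1 day. Col4a1 (chromosome 8, 11198423 to 11312889) had 1484 and 745 CPM after MI and 827 and 568 CPM after sham surgery at 1 day. Col4a1 at 3 days had 849.8 and 781 CPM after MI and 452 and 462 CPM after sham surgery. MI libraries A and B of 1 day differed more from each other than the sham libraries did, and the difference at 1 day did not pass the test (log2 fold change 0.68, SE 0.30, adjusted p = 0.0991). It passed, as higher, without MI library B (adjusted p = 0.00404, range of 0.00404 to 0.999 over 16 alternatives). At 3 days the MI libraries were above the sham libraries by 1.78-fold (log2 fold change 0.84, SE 0.30, adjusted p = 0.0379), with no overlap. RLE scaling, no low-count filter and the transcript tables lost this call. This call ended on leaving out any library of 3 days, while its log2 fold change stayed between 0.56 and 1.10 over 16 alternatives. It also ended on leaving out a sham library of 1 day (adjusted p = 0.0683 for A and 0.0679 for B). Col4a2 (chromosome 8, 11312805 to 11449287) had 818 and 424 CPM after MI and 539 and 357 CPM after sham surgery at 1 day. Col4a2 at 3 days had 403 and 379 CPM after MI and 270.1 and 289.9 CPM after sham surgery. It was called on neither day (adjusted p = 0.228 and 0.194), and without MI library B of 1 day it was called higher on both (adjusted p = 0.0155, range of 0.0155 to 0.796 over 16 alternatives, and 0.0495, range of 0.0135 to 0.757 over 16 alternatives). The 2 genes start head to head and their annotations overlap by 85 bases, and whether counting used strand was not stated in the labels or file headers.

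Of the other type IV chains, used in the filter of the kidney and in some muscle and epithelial membranes, 3 of 4 fell at 3 days. Lower calls on that day were 23.7% of all genes. Col4a3 and Col4a4, also head to head with an overlap of 114 bases on chromosome 1, were lower at 3 days. Col4a3 (chromosome 1, 82586921 to 82722059) had 3.97 and 11.7 CPM after MI and 5.09 and 7.52 CPM after sham surgery at 1 day. Col4a3 at 3 days had 1.11 and 1.70 CPM after MI and 9.88 and 8.70 CPM after sham surgery. Both MI libraries of 3 days were below every other library, 6.50-fold under sham (log2 fold change −2.70, SE 0.48, adjusted p = 0.00100). Col4a4 (chromosome 1, 82448419 to 82587034) had 5.19 and 7.12 CPM after MI and 9.20 and 5.86 CPM after sham surgery at 1 day. Col4a4 at 3 days had 1.97 and 1.63 CPM after MI and 9.08 and 10.8 CPM after sham surgery. It showed the same order at 3 days, 5.53-fold under sham (log2 fold change −2.47, SE 0.34, adjusted p = 0.000190), and neither gene passed the test at 1 day (adjusted p = 0.729 and 0.479). Col4a5 (chromosome X, 141475370 to 141689236) had 38.4 and 49.1 CPM after MI and 101 and 93.9 CPM after sham surgery at 1 day. Col4a5 at 3 days had 42.7 and 47.1 CPM after MI and 72.7 and 84.3 CPM after sham surgery. It was lower after MI on both days, by 2.23-fold at 1 day (log2 fold change −1.16, SE 0.19, adjusted p = 0.00160) and 1.75-fold at 3 days (log2 fold change −0.81, SE 0.18, adjusted p = 0.00420), and its groups were apart. Col4a6, which lies 1274 bases from Col4a5 on the X chromosome, passed no test and stood between 0.324 and 5.16 CPM. At 1 day it was called higher without MI library A (adjusted p = 0.0345) and lower without MI library B (adjusted p = 0.0399), with a range of 0.0345 to 0.953 over 16 alternatives.

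The beaded filament collagen VI is a trimer of the Col6a1 and Col6a2 chains with one more chain, most often that of Col6a3. All 3 genes fell at 1 day, and of them Col6a3 was called higher at 3 days. Lower calls at 1 day were 19.7% of all genes, and higher calls at 3 days 31.7%. Col6a1 (chromosome 10, 76708792 to 76726044) had 73.8 and 51.8 CPM after MI and 146 and 146 CPM after sham surgery at 1 day. Col6a1 at 3 days had 121 and 139.8 CPM after MI and 152 and 92.5 CPM after sham surgery. MI libraries lay below sham at 1 day (log2 fold change −1.21, SE 0.26, adjusted p = 0.00603) and among them at 3 days (log2 fold change 0.10, SE 0.25, adjusted p = 0.767). The call of Col6a1 at 1 day was lost without both B libraries of 1 day (adjusted p = 0.0820, range of 5.51e-05 to 0.0820 over 16 alternatives). Col6a2 (chromosome 10, 76595756 to 76623630) had 40.8 and 27.4 CPM after MI and 98.2 and 84.6 CPM after sham surgery at 1 day. Col6a2 at 3 days had 70.0 and 72.7 CPM after MI and 84.3 and 53.3 CPM after sham surgery. The pattern was that of Col6a1, lower at 1 day (log2 fold change −1.41, SE 0.26, adjusted p = 0.00310) and overlapping at 3 days (log2 fold change 0.05, SE 0.25, adjusted p = 0.875). Col6a3 (chromosome 1, 90766860 to 90844001) had 87.7 and 115 CPM after MI and 169.6 and 143 CPM after sham surgery at 1 day. Col6a3 at 3 days had 305 and 317 CPM after MI and 127 and 96.5 CPM after sham surgery. It was 1.55-fold lower at 1 day (log2 fold change −0.63, SE 0.21, adjusted p = 0.0358) and 2.78-fold higher at 3 days (log2 fold change 1.48, SE 0.20, adjusted p = 0.000212). Library size alone and a fit per day lost the call at 1 day. The call at 1 day ended on leaving out a sham library of 1 day (adjusted p = 0.178 for A and 0.0622 for B) or an MI library of 3 days (0.0590 for A and 0.0596 for B), with a range of 0.00818 to 0.264 over 16 alternatives.

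Col6a6 (chromosome 9, 105689417 to 105828246), a chain that can take the place of Col6a3 in the trimer, fell on both days. It had 1.54 and 6.51 CPM after MI and 11.9 and 17.7 CPM after sham surgery at 1 day. Col6a6 at 3 days had 0.164 and 0.306 CPM after MI and 23.0 and 10.6 CPM after sham surgery. The MI libraries of 3 days, with 4 and 9 reads against 430 and 199 in the sham libraries, were below every other library. The difference at 3 days was 67.6-fold (log2 fold change −6.08, SE 0.74, adjusted p = 8.61e-05), the largest fall among the 40 members tested. At 1 day it was 4.04-fold (log2 fold change −2.02, SE 0.58, adjusted p = 0.0218), which did not pass on leaving out MI library A (adjusted p = 0.0918) or sham B (adjusted p = 0.101, range of 0.00505 to 0.101 over 16 alternatives). The 2 remaining chains of this kind, Col6a5 and Col6a4, lie beside Col6a6 on chromosome 9, with gaps of 27823 and 27854 bases. Col6a5 passed neither test of MI against sham (adjusted p = 0.0650 and 0.0980). Without MI library A of 1 day it was called higher at 1 day (adjusted p = 0.00239, range of 0.00239 to 0.967 over 16 alternatives), and without MI library A or B of 1 day lower at 3 days (adjusted p = 0.00952 and 0.0130, range of 0.00952 to 0.331 over 16 alternatives). Col6a4 had 0 to 5 reads in every library but MI library B of 1 day, which had 50.

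Of the multiplexins, collagens whose ends are cut to fragments that act on vessels, Col15a1 and Col18a1 ended alike and began differently. Col15a1 (chromosome 4, 47207655 to 47313167), a collagen of muscle and capillary basement membrane, had 52.9 and 37.1 CPM after MI and 108 and 87.1 CPM after sham surgery at 1 day. Col15a1 at 3 days had 246 and 215 CPM after MI and 93.3 and 68.6 CPM after sham surgery. It was lower at 1 day (log2 fold change −1.11, SE 0.24, adjusted p = 0.00580) and higher at 3 days (log2 fold change 1.51, SE 0.23, adjusted p = 0.000372). The call at 1 day did not hold on leaving out sham A (adjusted p = 0.0699, range of 4.79e-05 to 0.0699 over 16 alternatives). Col18a1 (chromosome 10, 77052178 to 77166530), the source of the fragment endostatin, had 21.1 and 15.2 CPM after MI and 12.6 and 13.1 CPM after sham surgery at 1 day. Col18a1 at 3 days had 89.7 and 89.3 CPM after MI and 10.4 and 8.01 CPM after sham surgery. MI libraries of 3 days were 9.71-fold above sham (log2 fold change 3.28, SE 0.22, adjusted p = 3.54e-06). At 1 day both MI libraries were above both sham libraries without passing the test (log2 fold change 0.51, SE 0.23, adjusted p = 0.104), which Col18a1 passed without MI library B (adjusted p = 0.0245, range of 0.0196 to 0.589 over 16 alternatives).

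Transmembrane and anchoring collagens were rare. Col23a1, a transmembrane collagen, had 8.10 and 6.14 CPM after MI and 3.24 and 2.01 CPM after sham surgery at 1 day. Col23a1 at 3 days had 4.01 and 2.79 CPM after MI and 2.94 and 3.34 CPM after sham surgery. It was higher at 1 day (log2 fold change 1.46, SE 0.39, adjusted p = 0.0153), and its groups overlapped at 3 days. The call ended on leaving out MI library A (adjusted p = 0.0718), sham A (0.0524) or sham B (0.149) of 1 day, with a range of 0.00573 to 0.149 over 16 alternatives. Col7a1, the anchoring fibril of skin, had 1.62 and 9.21 CPM after MI and 0.810 and 0.574 CPM after sham surgery at 1 day. Col7a1 at 3 days had 2.21 and 3.03 CPM after MI and 0.534 and 1.49 CPM after sham surgery. It was called higher at 1 day (log2 fold change 2.81, SE 0.88, adjusted p = 0.0306), where MI library B lay well above library A, and not on leaving out that library (adjusted p = 0.250). The call also ended on leaving out sham A (0.137) or sham B (0.167) of 1 day, or MI library A (0.0545) or B (0.0556) of 3 days, with a range of 0.00138 to 0.458 over 16 alternatives. At 3 days Col7a1 was called higher without MI library B of 1 day (adjusted p = 0.0301, range of 0.0301 to 0.549 over 16 alternatives). Col17a1, the collagen of hemidesmosomes, passed no test and had 2.67 and 7.62 CPM after MI and 2.43 and 1.89 CPM after sham surgery at 1 day. Col17a1 at 3 days had 1.72 and 1.50 CPM after MI and 1.34 and 10.9 CPM after sham surgery. Its highest value was in sham library B of 3 days, with 206 reads where library A had 25, and without sham library A of 3 days the gene was called lower at 3 days (adjusted p = 0.00165, range of 0.00165 to 0.851 over 16 alternatives).

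The 16 members that never reached a group mean of 5 CPM had, with 1 exception, their highest level in the same library. In MI library B of 1 day all 16 were above 1 CPM, between 1.84 and 8.72 CPM with a median of 5.41 CPM. In MI library A of 1 day the median was 0.567 CPM, in the sham libraries of 1 day 0.260 and 0.517 CPM, in the MI libraries of 3 days 0.205 and 0.340 CPM, and in the sham libraries of 3 days 0.374 and 0.531 CPM. For 15 of the 16, MI library B of 1 day had the highest CPM of all 8. Per kilobase of transcript these members had a median of 1.09 CPM in that library, where the receptor genes had a median of 0.451 CPM. Col2a1, Col9a3, Col13a1 and Col25a1 of this set were called higher at 1 day. Of them Col2a1, the main cartilage chain, singled out after its values were seen, had 0.648 and 6.51 CPM after MI and 0.0579 and 0.0574 CPM after sham surgery at 1 day. Col2a1 at 3 days had 0.0409 and 0.102 CPM after MI and 0 and 0.106 CPM after sham surgery. These rested on 8 and 53 reads after MI and 1 and 1 after sham surgery at 1 day, so no fold is given. Without MI library B Col2a1 kept its call and the other 3 lost theirs, and all 4 lost theirs on leaving out either sham library of 1 day. The part of that library's receptor reads in these calls was not tested. Col13a1 was lower at 3 days (log2 fold change −2.25, SE 0.86, adjusted p = 0.0478), on 2 and 8 reads after MI and 24 and 10 after sham surgery, and Col28a1 was higher (log2 fold change 1.94, SE 0.51, adjusted p = 0.00929). The call of Col13a1 was lost on leaving out any library but MI library A or B of 1 day or sham B of 3 days (adjusted p up to 0.380), and with DESeq2, limma-voom, library size alone and no low-count filter. That of Col28a1 was lost on leaving out MI library A (0.0608) or MI library B (0.0530) of 3 days. Col9a1 had 0 reads in all libraries of 3 days and Col19a1 in both sham libraries of 3 days, so no fold is given for them there.

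**Figure D3:**
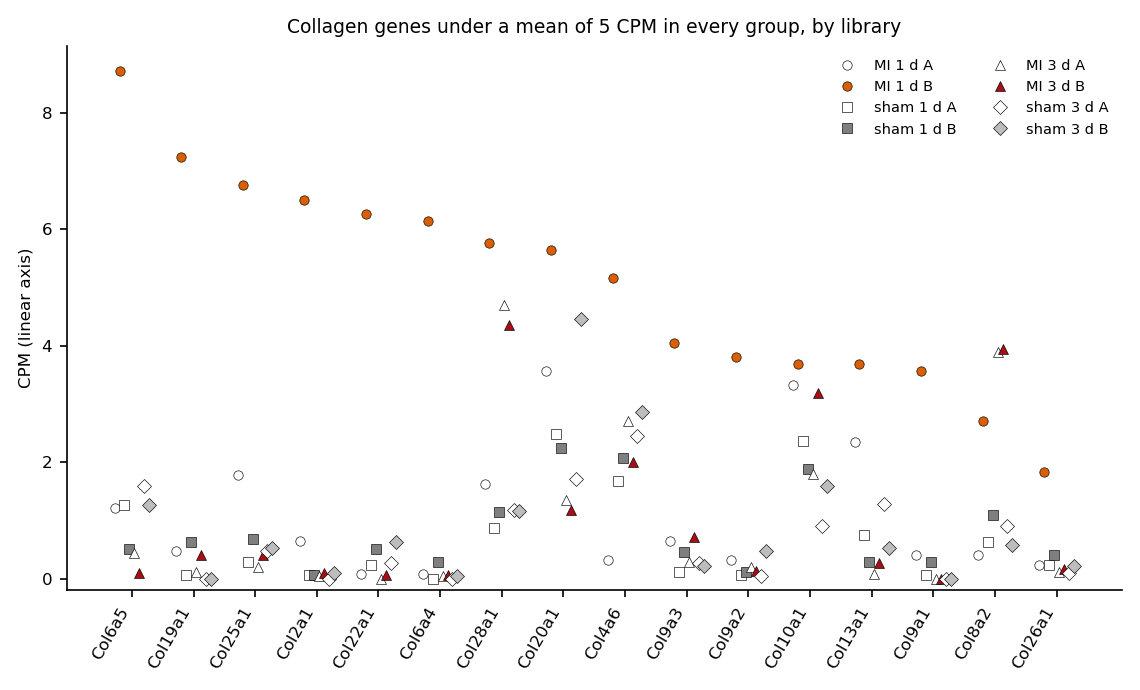
Level of the 16 collagen genes with a mean under 5 CPM in every group, in CPM on a linear axis, with 1 symbol per library (open for A, filled for B). The filled circles of MI library B of 1 day lie at 1.84 to 8.72 CPM and are the highest point for every gene but Col8a2.

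Per kilobase of the longest transcript, the make-up of collagen RNA turned over. Fibrillar chains were 16.0% and 27.9% of collagen CPM per kilobase after MI and 41.0% and 49.2% after sham surgery at 1 day. At 3 days they were 76.0% and 78.1% after MI and 57.5% and 49.2% after sham surgery. Type IV chains ran the other way, with 69.8% and 50.1% after MI and 39.1% and 30.0% after sham surgery at 1 day, and 8.96% and 7.67% after MI and 22.0% and 31.0% after sham surgery at 3 days. In both shares the MI libraries were outside the range of the sham libraries on each day. At 3 days the summed CPM of type IV chains were nonetheless above sham. They were 1301 and 1213 CPM after MI and 816 and 859 CPM after sham surgery. Short-chain collagens had 2.81% and 4.59% after MI and 1.25% and 1.51% after sham surgery at 1 day, and 6.02% and 5.76% after MI and 2.09% and 2.36% after sham surgery at 3 days. Beaded filament chains had 3.35% and 3.34% after MI and 12.4% and 10.6% after sham surgery at 3 days, although their summed CPM were above sham (497 and 530.4 CPM after MI and 388 and 254 CPM after sham surgery). All collagen genes together took 0.317% and 0.263% of counts after MI and 0.293% and 0.271% after sham surgery at 1 day, which overlap. At 3 days they took 1.51% and 1.66% after MI and 0.329% and 0.240% after sham surgery. These shares are descriptions of 2 libraries a group, with no test.

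**Figure D4:**
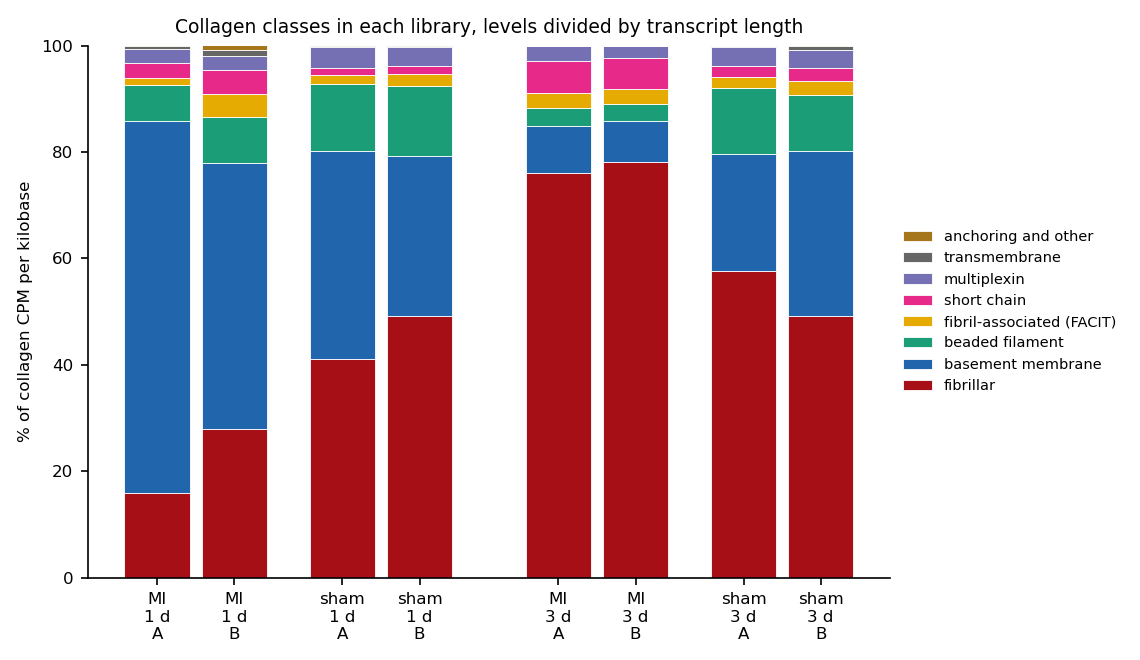
Share of each collagen class in the collagen CPM per kilobase of every library, as stacked bars that add to 100%. Fibrillar chains take the lowest shares in MI libraries A and B of 1 day (16.0% and 27.9%) and the highest in those of 3 days (76.0% and 78.1%).

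The order of levels per kilobase changed with it. In the MI libraries of 1 day Col4a1 came first (224 and 113 CPM per kilobase), then Col4a2 (127 and 65.7) and Col3a1 (37.7 and 50.2). The levels of Col4a1 and Col4a2 overlapped between these libraries and did not change order within them. In the sham libraries of 1 day Col3a1 came first (127 and 155 CPM per kilobase), then Col4a1 (125 and 85.9), close to it in library A and well under it in library B. The MI libraries of 3 days had Col3a1 (915 and 1001 CPM per kilobase), Col1a2 (334 and 395), Col1a1 (202 and 234), Col5a2 (157 and 173) and Col8a1 (132 and 137) in this order, with no overlap between neighbours. In the sham libraries of 3 days Col3a1 (207 and 125 CPM per kilobase) and Col4a1 (68.3 and 69.9) led. Col4a1 and Col4a2, first and second at 1 day after MI, were not among the first 5 after MI at 3 days.

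For chains that share a trimer or a fibril, the ratio of their RNAs was taken within each library. The ratio of Col1a1 to Col1a2 per kilobase was 0.290 and 0.336 after MI and 0.541 and 0.508 after sham surgery at 1 day. At 3 days it was 0.606 and 0.594 after MI and 0.517 and 0.503 after sham surgery. The groups were apart on both days and in opposite directions. Col5a1 to Col5a2 was 0.236 and 0.282 after MI and 0.747 and 0.769 after sham surgery at 1 day. For this pair it was 0.315 and 0.307 after MI and 0.637 and 0.625 after sham surgery at 3 days. The log2 difference of MI minus sham was −1.55 at 1 day and −1.02 at 3 days, lower on both. The ratio of Col3a1 to Col1a1 was 9.85 and 11.9 after MI and 4.83 and 6.61 after sham surgery at 1 day, and 4.52 and 4.27 after MI and 7.89 and 7.79 after sham surgery at 3 days, higher at first and then lower after MI. Col4a1 to Col4a2 was 1.77 and 1.71 after MI and 1.50 and 1.55 after sham surgery at 1 day, and 2.06 and 2.01 after MI and 1.63 and 1.55 after sham surgery at 3 days, higher after MI on both. Col6a1 to Col6a2 stayed between 1.78 and 2.31 in all 8 libraries. Col6a3 to Col6a1 was 1.02 and 0.921 after MI and 0.340 and 0.423 after sham surgery at 3 days, with MI well above sham. The 9 ratios were not tested.

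**Figure D5:**
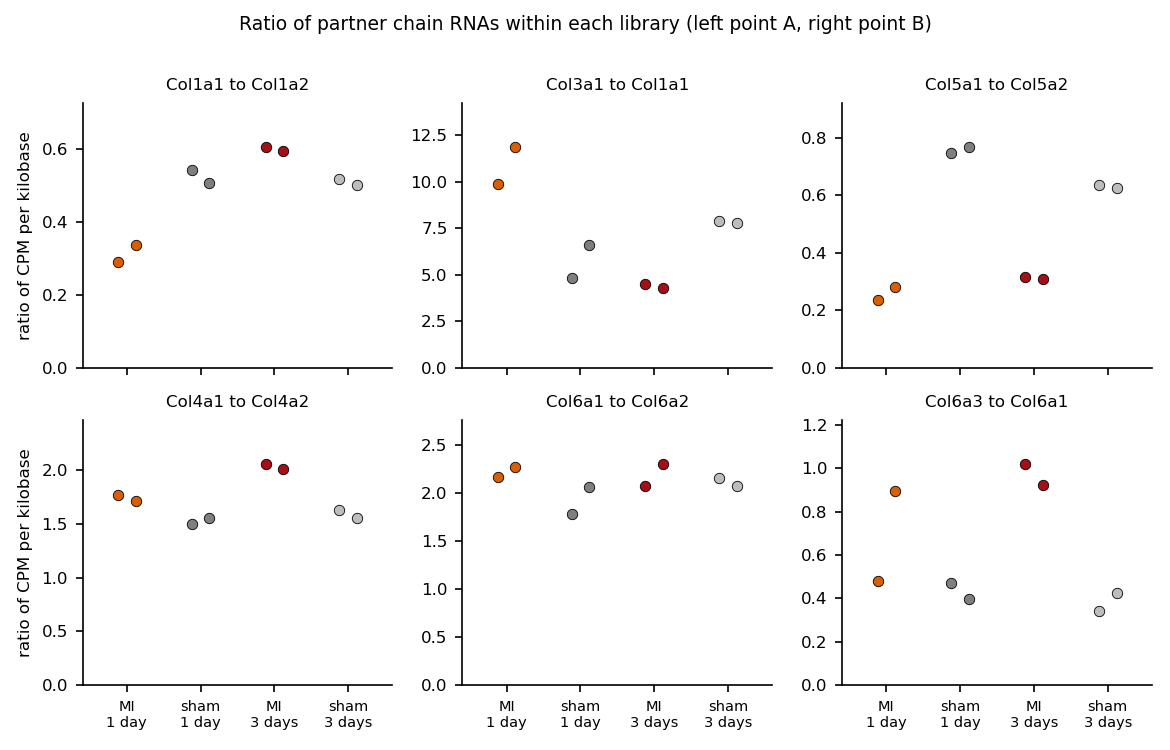
Ratio of the RNAs of partner chains within each library, as CPM per kilobase on linear axes from 0, for 6 pairs. Col1a1 to Col1a2 lies at 0.290 and 0.336 in the MI libraries of 1 day and between 0.503 and 0.606 in the other 6, and Col5a1 to Col5a2 is lower in all MI libraries than in all sham libraries.

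Many genes that fold, process and cross-link collagen were also higher at 3 days, when 31.7% of all genes were called higher and 23.7% lower. At 1 day 19.3% of all genes were called higher and 19.7% lower. Of 21 genes of folding and hydroxylation in the endoplasmic reticulum, 1 was higher and 5 lower at 1 day, and 14 higher and 3 lower at 3 days (median log2 fold change −0.09 and 1.26, against 0.12 and 0.16 over all genes). Serpinh1, the chaperone of the collagen helix, had 269 and 229.7 CPM after MI and 604 and 497 CPM after sham surgery at 1 day. Serpinh1 at 3 days had 1094 and 1262 CPM after MI and 361 and 359 CPM after sham surgery. The groups were apart on both days, lower at 1 day (log2 fold change −1.14, SE 0.18, adjusted p = 0.00125) and higher at 3 days (log2 fold change 1.71, SE 0.18, adjusted p = 3.56e-05). The single rise of the list at 1 day was Plod2, a lysyl hydroxylase (log2 fold change 0.82, SE 0.21, adjusted p = 0.0129), and the largest fall that of its relative Plod1 (log2 fold change −1.47, SE 0.23, adjusted p = 0.00125). The call of Plod2 ended on leaving out sham A (adjusted p = 0.151) or sham B (0.0735) of 1 day (range of 0.00238 to 0.151 over 16 alternatives). At 3 days P4ha3, a subunit of prolyl hydroxylase with 14.8 and 18.0 CPM after MI and 0.320 and 0.212 CPM after sham surgery, rose most (log2 fold change 5.91, SE 0.47, adjusted p = 2.62e-06), and Colgalt2, which adds sugar to collagen, fell most (log2 fold change −2.03, SE 0.39, adjusted p = 0.00161).

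Of 13 genes of propeptide processing and cross-linking, 3 were higher and 2 lower at 1 day, and 10 higher and 0 lower at 3 days. Their medians were 0.17 and 1.65. The shares called at 1 day, 23.1% and 15.4%, were near those of all genes (19.3% and 19.7%). Lox, the enzyme that starts the cross-links, had 110.4 and 85.5 CPM after MI and 17.3 and 17.8 CPM after sham surgery at 1 day. Lox at 3 days had 725 and 648 CPM after MI and 35.5 and 32.5 CPM after sham surgery. Unlike Serpinh1 and type I collagen it was already above sham at 1 day (log2 fold change 2.48, SE 0.19, adjusted p = 9.83e-05) and further above at 3 days (log2 fold change 4.34, SE 0.20, adjusted p = 1.26e-06). Tll1, a protease that removes propeptides, rose at 1 day (log2 fold change 3.16, SE 0.64, adjusted p = 0.00443), while Pcolce, which enhances that cut, fell (log2 fold change −1.43, SE 0.32, adjusted p = 0.00686). Both calls ended on leaving out sham A of 1 day (adjusted p = 0.0570 for Tll1, range of 0.000172 to 0.0570 over 16 alternatives, and 0.0586 for Pcolce, range of 7.31e-05 to 0.0753 over 16 alternatives). Of 11 genes that organise fibrils, 2 were higher and 2 lower at 1 day and 6 higher and 2 lower at 3 days (medians −0.30 and 0.91). At 1 day the shares of this list were 18.2% in each direction, also near those of all genes. Fn1, the fibronectin on which collagen fibrils form, rose at 1 day (log2 fold change 2.36, SE 0.30, adjusted p = 0.000505), and Tnxb, the tenascin of resting connective tissue, fell on both days (log2 fold change −1.74, SE 0.27, adjusted p = 0.00123 at 1 day, and log2 fold change −3.91, SE 0.30, adjusted p = 5.85e-06 at 3 days). Postn, a matricellular protein of activated fibroblasts, had 192 and 253 CPM after MI and 99.5 and 96.6 CPM after sham surgery at 1 day. Postn at 3 days had 4392 and 4051 CPM after MI and 178 and 121 CPM after sham surgery. It was higher at 1 day (log2 fold change 1.18, SE 0.22, adjusted p = 0.00317) and had the largest rise of the list at 3 days (log2 fold change 4.82, SE 0.25, adjusted p = 1.49e-06). The first of these did not hold on leaving out sham B (adjusted p = 0.0509, range of 1.06e-05 to 0.0518 over 16 alternatives).

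Genes that bind and break collagen were tested in the same fit. Of 12 collagen receptor genes 11 were tested, of which 2 were higher and 2 lower at 1 day and 6 higher and 0 lower at 3 days, with medians of 0.07 and 0.85. The shares called at 1 day, 18.2% in each direction, were near those of all genes (19.3% and 19.7%). Itga2, an integrin subunit, rose at 1 day (log2 fold change 2.11, SE 0.46, adjusted p = 0.00622), and Mrc2, which takes up collagen fragments, fell (log2 fold change −1.18, SE 0.23, adjusted p = 0.00333). The rise of Itga2 ended on leaving out sham A (adjusted p = 0.0580) or sham B (0.0523) of 1 day (range of 0.00115 to 0.0762 over 16 alternatives). The leukocyte receptor Lair1 rose most at 3 days (log2 fold change 3.27, SE 0.49, adjusted p = 0.000336). All calls among 7 collagen-degrading enzymes were higher, 4 at 1 day and 6 at 3 days, with medians of 1.19 and 2.81. These were 57.1% and 85.7% of the list, against 19.3% and 31.7% of all genes called higher. Mmp8, the collagenase of neutrophils, led at 1 day (log2 fold change 2.90, SE 0.50, adjusted p = 0.00202) and Mmp9, a gelatinase, at 3 days (log2 fold change 3.48, SE 0.55, adjusted p = 0.000468). These pathway lists and the marker lists were chosen with earlier results of the same libraries known, and their counts are descriptions. The lists share genes, with Postn and Fap also among the markers of activated fibroblasts and Mmp8 and Mmp9 among those of neutrophils.

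Markers of other cells moved in the same libraries, where 19.3% of all genes were called higher and 19.7% lower at 1 day. At 3 days the shares of all genes were 31.7% and 23.7%. Of 12 markers of quiescent fibroblasts, 1 was higher and 6 lower at 1 day and 3 higher and 7 lower at 3 days. Their summed level was 2002 and 1115 CPM after MI and 3007 and 3079 CPM after sham surgery at 1 day, and 1146 and 1047 CPM after MI and 4073 and 2135 CPM after sham surgery at 3 days. Of 10 markers of activated fibroblasts, 4 were higher and 1 lower at 1 day, and all 10 were higher at 3 days. The sum of these was 712 and 841 CPM after MI and 476 and 406 CPM after sham surgery at 1 day. At 3 days it was 6356 and 6240.2 CPM after MI and 436 and 424 CPM after sham surgery. Postn made up most of the sum after MI at 3 days. At 1 day the quiescent sum and Col1a1, Col1a2, Col3a1, Col5a1 and Col5a3 were lower after MI, while the activated sum was higher. At 3 days the activated sum and these chains were higher, while the quiescent sum was lower. The part of these cells in the collagen changes was not tested.

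Endothelial markers, to be read beside type IV collagen, numbered 12, with 6 higher and 1 lower at 1 day and 3 higher and 2 lower at 3 days. Summed, they came to 3020.4 and 2397 CPM after MI and 1879 and 1843 CPM after sham surgery at 1 day, and to 2204 and 1669.6 CPM after MI and 2092 and 1749.6 CPM after sham surgery at 3 days, which overlap. Mural cell markers numbered 10, with 1 higher and 3 lower at 1 day and 3 higher and 6 lower at 3 days. Their sums were 1174 and 1101 CPM after MI and 1562 and 1561 CPM after sham surgery at 1 day, and 794 and 676 CPM after MI and 1746 and 1499 CPM after sham surgery at 3 days. Macrophage markers numbered 10, with 3 higher and 3 lower at 1 day and 10 higher at 3 days, and all 10 neutrophil markers were higher at 1 day and 9 at 3 days. Among 5 tested chondrocyte markers 1 was higher at 1 day, and their sum was 4.21 and 16.1 CPM after MI and 6.54 and 8.27 CPM after sham surgery, with 0 of 8 listed markers at 0 reads in MI library B and 1 to 3 at 0 in the other libraries of that day. At 3 days Sox9 was higher and Lect1 lower, and the sum was 14.4 and 11.2 CPM after MI and 9.99 and 4.14 CPM after sham surgery. Of 7 tested markers of nerve sheath 0 were called at 1 day, and 1 was higher and 2 lower at 3 days. Of 8 epicardial markers 1 was higher on each day, and of 4 tested keratinocyte markers 0 were called at 1 day and 1 was higher at 3 days. No fibroblast, endothelial, mural, cardiomyocyte, macrophage, neutrophil or epicardial marker listed was at 0 reads in any library.

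Time itself was compared within each surgery. After MI, 18 members were higher and 11 lower at 3 days than at 1 day, where 23.4% and 22.0% of all genes were called (45.4% in either direction). Without MI library A of 1 day 18 were lower, and without MI library A or B of 3 days 7 and 5 were lower. Of all genes, more were called in the first of these fits and fewer in the others than with all libraries. The libraries of the 2 days did not overlap for 70.6% of all genes after MI and for 45.3% after sham surgery. Col1a1 was 54.4-fold higher at 3 days than at 1 day after MI (log2 fold change 5.77, SE 0.29, adjusted p = 4.75e-06), Col1a2 28.3-fold and Col3a1 21.8-fold. Col5a2 was 8.61-fold and Col8a1 9.35-fold higher. Col4a3 and Col4a4 were 5.15-fold and 3.36-fold lower (adjusted p = 0.00572 and 0.00521). After sham surgery 0 of 40 members and 0.00% of all genes were called by edgeR, with 4 members and 1210 genes at an unadjusted p under 0.05, while DESeq2 called 0 members and 60 genes and limma-voom 0 of either. The time contrasts share libraries with the contrasts of MI against sham, and day and any batch of the libraries cannot be told apart.

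The authors' deposited DESeq2 tables called many of the same members, and the shares of all genes called in them were not counted here. At 1 day the authors' deposited table called 5 members higher and 10 lower after MI, all 15 of which were among the 22 called here. At 3 days the authors' deposited table called 19 higher and 7 lower after MI, and 23 of these were among the 24 called here. Col13a1 was called here alone, while Col6a5, Col17a1 and Col20a1 were called lower there and not here. The sign of each table was read from its Spearman correlation with the fit here, 0.989 at 1 day and −0.998 at 3 days. That of 3 days was so taken as sham over MI, and agreement in the main direction is no evidence. The deposited transcript tables are a second count of the same libraries and no separate experiment. Their reads summed to genes gave 4 members higher and 12 lower at 1 day and 18 higher and 7 lower at 3 days, of 36 tested. Of all 14567 genes tested there, 2926 were higher and 2775 lower at 1 day, and 3835 higher and 4152 lower at 3 days.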

How the data were processed

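Total RNA of the left ventricle from 8 mice in 4 groups (MI and sham at 1 day and 3 days, 2 animals each) had been depleted of ribosomal RNA and sequenced as read pairs on an Illumina HiSeq2500, per the labels' protocols. The authors deposited raw gene counts and transcript tables. The submitters' processing notes name TopHat2 2.0.14 with Bowtie2 2.2.5, HTSeq, SAMtools 0.1.2, FastQC and DESeq2, and the build mm10. Whether HTSeq counted by strand was not stated in the labels or file headers. The authors' deposited comparison tables hold log2 fold changes and adjusted p-values.

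Gene counts were joined by symbol (24062 genes) and fitted together in edgeR 4.0.16 (R 4.3.3): TMM scaling, filterByExpr (15508 genes), robust quasi-likelihood F test, and Benjamini-Hochberg adjustment over all genes at 0.05. SE is the size of the log2 fold change divided by the root of F. The common dispersion was 0.0602, with 4 residual degrees of freedom. Libraries are biological replicates per the design text. The p-values rest on the spread between the 2 animals of a group, pooled over the 4 groups. That spread was drawn toward a trend over all genes, with a median of 5.51 prior degrees of freedom. Levels per kilobase used the longest transcript in the transcript tables. The fit was also run on counts simulated with the common dispersion for every gene and with no library set apart. That run cannot speak to a library such as MI library B of 1 day, and no result here rests on it. Alternatives were RLE, library size alone, no filter, DESeq2 1.42.0, limma-voom (limma 3.58.1), a fit per day, leaving out each library, leaving out both B libraries of 1 day and the transcript tables, the last 2 added after the data were seen.

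The members and lists were chosen with earlier results of these data known. Values in every library are given for the 28 members with a mean of at least 5 CPM in 1 group or more. Of each pathway list the called genes with the largest rise and fall on each day were named, with Serpinh1, Lox and Postn always named. Promoter windows came from RefSeq (GRCm38.p6). No transcript or protein sequences were used.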

Additional observations from a re-analysis of the deposited data

Results flagged for a closer look

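The effect of MI differed between 3 days and 1 day, by the interaction test of the edgeR fit, in 20 members. In log2 units, as the effect at 3 days minus that at 1 day, the differences of the fibrillar chains were 6.00 for Col1a1, 5.01 for Col1a2, 4.21 for Col3a1, 3.47 for Col5a1, 2.94 for Col5a2, 1.56 for Col5a3 and 4.66 for Col11a1. The FACIT chains Col14a1 and Col16a1 differed by 4.09 and 2.56, the multiplexins Col15a1 and Col18a1 by 2.62 and 2.76, and the short-chain Col8a1 by 2.61. Of the type VI chains, Col6a1, Col6a2 and Col6a3 differed by 1.30, 1.46 and 2.11, while Col6a5 and Col6a6 differed by −4.73 and −4.06. Negative differences also stood for the type IV chains Col4a3 (−2.92) and Col4a4 (−2.15) and the transmembrane Col13a1 (−4.72). Col6a5 and Col6a6 lost the difference without MI library B of 1 day, the library with reads for most receptor genes.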

How the results depend on the processing

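No member called with all libraries reversed its direction in an alternative that gave it a value. Single results of the 40 tested members stayed on their side of the threshold in 2084 cases. They became weaker in 198, stronger in 80, moved in 87 and reversed in 3, the last for Col4a6. Those of the named pathway genes stayed in 479, became weaker in 18, stronger in 8 and moved in 6. Col4a6, not called with all libraries, had a log2 fold change of −2.51 to 1.37 at 1 day on leaving out single libraries (lowest without MI library B), and for 3 days against 1 day after MI −1.22 to 2.83 (highest without that library) and 2.82 without both B libraries. The 10 members higher at 1 day became 17 with library size alone, 5 with limma-voom, 6 with a fit per day, 4 without both B libraries and 4 in the transcript tables. Leaving out single libraries gave 2 to 20 such members, 4 to 8 members lower at 3 days, and, for all genes, 2685 to 9388 called at 1 day (6051 with all libraries, fewest without sham library A and most without MI library A). The difference between days was called for 1576 to 5297 genes (3799 with all), with 1 to 12 members lower (5 with all, 8 with DESeq2, 3 with limma-voom, 1 without both B libraries). Between 3 days and 1 day after MI, 4039 to 9427 genes were called (7042 with all) and 5 to 18 members lower (11 with all, 7 without both B libraries). Between sham groups 0 genes became 60 with DESeq2, 0 to 2 without single libraries and 3 without both B libraries. The cause was not tested. Library size alone moved the median log2 fold change of all genes by 0.28 at 1 day and 0.26 at 3 days, and 67.6% and 66.7% of calls were then higher, against 49.5% and 57.2%. RLE moved the median at 3 days by −0.13, and with counts by transcript 38.1% of the differences between days were positive, against 53.9%. Of the members called, 2 of 10 higher and 7 of 12 lower at 1 day, and 16 of 19 higher and 4 of 5 lower at 3 days, kept their call in every alternative that gave a value.

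No paired analysis was possible because the count columns carry no replicate number. The comparison of unique with total transcript reads was not run. Depth limits the 16 low members, many on fewer than 10 reads a library, and 2 animals a group limit all tests.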
